A study of Mus musculus with 24 samples.

Results

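The m6A landscape of normal kidney was described from the 4 control mice of a study of cisplatin injury, which were given vehicle only. Methylated RNA immunoprecipitation sequencing (MeRIP-seq) enriches fragmented RNA with an antibody against N6-methyladenosine (m6A), and stretches with more reads than background are called as peaks. Control peaks sharing at least 1 bp were merged into a locus, and a locus was kept when all 4 lists held a peak there. Of 13261 loci with a peak in any control kidney, 5327 (40.2%) had one in all 4. Each was assigned to a protein-coding gene of GRCm38 on the strand given for the peak.

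All mice were male C57BL/6 mice aged 8 weeks, labelled C57. Control mice received vehicle daily for 14 days and then an injection of vehicle, the injury group (IG) received vehicle and then cisplatin at 20 mg/kg, and the treatment group (TG) was given a daily berberine dose of 20 mg/kg over those 14 days and then the same cisplatin dose. Kidneys were taken 72 h after the injection, with 4 mice and 1 peak list per mouse in each group, so that the controls make up 4 of 12 kidneys. RNA came from kidney tissue, which holds nephron, vascular, stromal and immune cells together, so that less methylation per transcript, fewer cells of a type and less RNA per cell cannot be told apart.

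m6A is written on mRNA in the nucleus by a complex of METTL3, METTL14 and WTAP with accessory proteins. It is removed by FTO and ALKBH5 and read by proteins with a YTH domain, which steer splicing, decay and translation of the transcript. The writer acts at adenosines within a short consensus called RRACH, in which R is A or G and H is A, C or T, and in most tissues the mark is known to gather in long internal exons and around stop codons.

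The 4 control lists held 8712, 8531, 8986 and 9579 peaks, a mean of 8952 ± 458 (SD, n = 4). The score of a peak is its p-value from the peak caller as -10 log10 p, so 13.0 corresponds to p = 0.05, and a large share of the strongest peaks sits at exactly 3100, with 70 to 100 peaks per control kidney at 3100 or more. A score rises with read number as well as with enrichment and is no measure of the methylated fraction. The lists give no read counts, so the depth is unknown, and a gene without a peak may be unmethylated, poorly expressed or below the calling threshold. The cell types in the tissue could be judged only by peaks: 0 of 21 genes of adipocytes, urothelium, adrenal gland, skeletal muscle and red blood cells had a locus in all 4 kidneys, and Adipoq and Fabp4 of adipocytes were the 2 with a peak in any. Adipoq, which encodes adiponectin, had a peak at one place in 3 of the 4 kidneys, with scores of 36.0, 125 and 88.5 in controls 1, 2 and 4, and Fabp4 had one in control 4 that scored 20.5. The part of fat tissue in the other values was not tested. Since 10.6% of all genes of the same transcript lengths had a locus, so short a list says little about other tissue in the samples.

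Sequences of 5 loci are shown, taken by mean score among loci of at most 300 bases that lay within the CDS of 1 exon. Cgnl1 and Eif5b were tied with others at a mean of 3100 and were taken by the alphabet. Tied loci of the same kind that are not printed were in Fam32a, exon 8 of Luc7l3, exons 26 and 27 of Myo6, Rdx, Rsph3b and St13. Wider loci reached the same scores and were too long to print. All are from the GRCm38 reference on the strand of the gene, and capitals mark the RRACH forms, which are AAAC or AGAC or GAAC or GGAC followed by A, C or T. The first is exon 9 of 11 of Luc7l3, an arginine- and serine-rich splicing protein (chr11:94295920-94296080, minus strand, 161 bases). The second is exon 8 of 13 of Ubxn4, a protein of endoplasmic reticulum degradation (chr1:128262793-128262957, plus strand, 165 bases). The third is exon 3 of 7 of Tmco1, a calcium channel of the endoplasmic reticulum (chr1:167314107-167314166, plus strand, 60 bases). The fourth is exon 13 of 19 of Cgnl1, the junction protein paracingulin (chr9:71645492-71645653, minus strand, 162 bases), and the fifth is exon 5 of 24 of Eif5b, a translation initiation factor (chr1:38021594-38021811, plus strand, 218 bases).
Luc7l3: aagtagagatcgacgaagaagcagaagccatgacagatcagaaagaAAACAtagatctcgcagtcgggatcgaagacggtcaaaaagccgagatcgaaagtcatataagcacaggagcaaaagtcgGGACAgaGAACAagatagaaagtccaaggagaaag
Ubxn4: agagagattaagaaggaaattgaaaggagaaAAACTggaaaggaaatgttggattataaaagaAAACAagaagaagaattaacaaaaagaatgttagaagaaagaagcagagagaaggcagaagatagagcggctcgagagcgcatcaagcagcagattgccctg
Tmco1: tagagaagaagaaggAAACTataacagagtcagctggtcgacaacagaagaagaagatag
Cgnl1: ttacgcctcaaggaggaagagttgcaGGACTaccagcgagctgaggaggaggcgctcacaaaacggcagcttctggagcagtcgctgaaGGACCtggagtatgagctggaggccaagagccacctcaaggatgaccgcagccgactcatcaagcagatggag
Eif5b: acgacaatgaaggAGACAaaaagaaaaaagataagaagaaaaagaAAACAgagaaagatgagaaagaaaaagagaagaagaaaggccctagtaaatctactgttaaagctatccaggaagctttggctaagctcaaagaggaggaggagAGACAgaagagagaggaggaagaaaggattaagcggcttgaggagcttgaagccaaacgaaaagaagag

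These 5 exons held 3, 2, 1, 2 and 3 RRACH forms. A or G made up 72.7% of the bases in Luc7l3, 77.0% in Ubxn4, 76.7% in Tmco1, 61.7% in Cgnl1 and 78.9% in Eif5b. All 5 loci were whole annotated exons in all 4 kidneys, and every score was 3100 or more. At this ceiling the order among loci carries no information.

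In genes of the nephron the loci with a GGACT, the form of the consensus best known for methylation, gave a second set. The 5 genes shown had the highest mean locus scores among nephron genes whose locus held a GGACT within the CDS, and each sequence is 61 bases around that GGACT, in capitals. They are Casr (chr16:36509712-36509772, minus strand), Ptpro (chr6:137380447-137380507, plus strand), Kcnj10 (chr1:172369717-172369777, plus strand), Foxi1 (chr11:34205708-34205768, minus strand) and Trpm6 (chr19:18854266-18854326, plus strand).
Casr: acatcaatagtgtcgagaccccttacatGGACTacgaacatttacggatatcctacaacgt
Ptpro: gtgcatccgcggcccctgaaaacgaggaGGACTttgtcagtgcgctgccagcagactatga
Kcnj10: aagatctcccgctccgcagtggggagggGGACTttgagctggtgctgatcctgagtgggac
Foxi1: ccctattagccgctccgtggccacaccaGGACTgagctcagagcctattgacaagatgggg
Trpm6: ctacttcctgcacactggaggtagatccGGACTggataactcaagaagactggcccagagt

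The loci of these genes held 1, 2, 5, 3 and 2 GGACT in all, in the same order, and were 885, 474, 5165, 1735 and 1142 bp wide. A peak this wide does not show which adenosine is methylated.

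Loci shared by more control kidneys had higher scores. The number of loci was 3563 with a peak in 1 kidney, 2265 in 2, 2106 in 3 and 5327 in 4. The median of the mean score was 22.1, 32.1, 48.4 and 153 in the same order, and the median width 211, 251, 345 and 440 bp. The lowest mean score among loci in all 4 kidneys was 16.02. The scores of the 5327 loci ranked alike in any pair of control kidneys, with Spearman's rho between 0.756 and 0.795 as a description across loci. Within a locus the highest score was 2.75 times the lowest at the median, with quartiles of 1.93 and 4.33, so smaller differences in score between loci lie within the spread between kidneys.

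**Figure D1:**
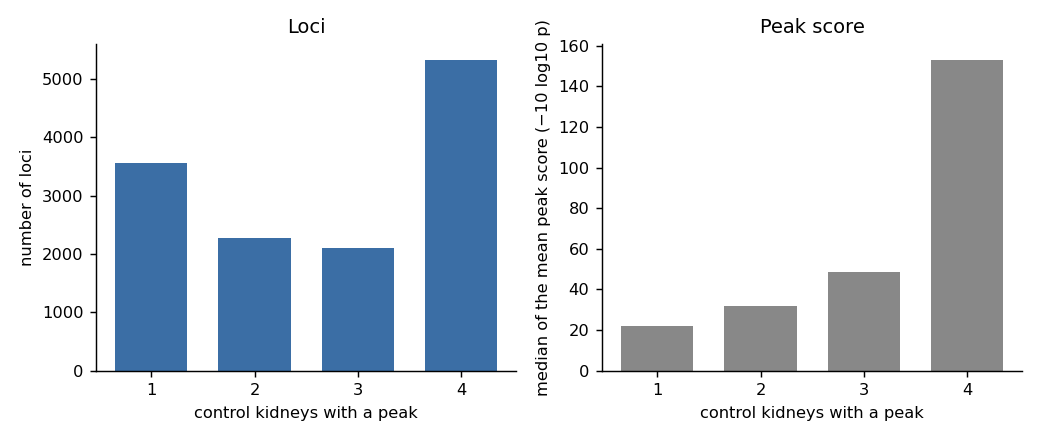
Number of loci (left) and median of their mean peak score in -10 log10 p (right) by the number of control kidneys with a peak at the locus. The 5327 loci present in all 4 kidneys are the largest class and have a median score of 153, against 22.1 for loci of 1 kidney.

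A control kidney that was left out held most of the loci of the other 3. The share was 89.7% in control 1, 89.8% in control 2, 90.8% in control 3 and 93.8% in control 4, and the kidney with the highest share had the longest list. Averaged over the 4 choices of 3 controls, the shares of the same loci found in treated kidneys were 69.4% to 76.5% in IG and 66.3% to 71.3% in TG. The difference was not tested, since the loci were chosen by control peaks and the treated lists were shorter, with 6745 to 8357 peaks in IG and 5901 to 6753 in TG.

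Of the 5327 loci, 5272 were assigned to 3305 genes, which is 15.1% of 21866 protein-coding genes, and 6346 genes (29.0%) had a peak in at least 1 control kidney. Most genes with a locus had 1 (2263 genes, 68.5%), 613 had 2, 308 had 3 or 4, and 121 had 5 or more. The median transcript of a gene with 1 locus was 3675 nt long with 8 exons, that of a gene with 5 or more 5564 nt with 22 exons, and that of all protein-coding genes 2540 nt with 7 exons. Genes with many loci were longer and had more exons.

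The highest number was 10 loci, in Akap9, Baz2b, Cep350, Cgnl1, Eea1, Phactr2 and Rock1. Chd2, Erc1 and Golim4 followed with 9, tied with Ktn1, Rufy1, Smarcc1, Smc6, Syne2, Tpr and Zc3h13, which are later in the alphabet. This order depended on weak peaks. With only peaks at or above the median control score, 4 of these 10 genes stayed among the highest and 25 genes in place of 121 had 5 or more loci. Akap9 anchors protein kinase A at the centrosome and Golgi, Cep350 is a centrosomal protein, Eea1 tethers early endosomes, Rock1 is a kinase of the actomyosin cytoskeleton, Phactr2 regulates actin and a phosphatase, Erc1 is a scaffold of the cell cortex and Golim4 a Golgi membrane protein. Baz2b and Chd2 bind or remodel chromatin. In each of the 10 genes every locus lay in a different exon, and 7 to 10 of the loci were whole exons in all 4 kidneys, so that here loci per gene count exons. The authors kept peaks that lay on mRNA exons, and whether peaks were also cut or called by exon is not given in the sources used here.

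Cgnl1 stood out by score among them. Its 10 loci were the coding exons 4 to 9 and 11 to 14 of 19, between 90 and 213 bp wide, and their mean scores ran from 242 (exon 7) to 3100 (exon 13) with a median of 1537. The medians of the other 9 genes lay between 69.6 (Chd2) and 327 (Phactr2). The best locus of Akap9 was exon 30 of 48, with scores of 1940, 1621, 1568 and 1527 in controls 1 to 4, and that of Phactr2 was exon 8 of 13 with 1645, 1321, 1329 and 1654. The best locus of Golim4 was exon 13 of 16 with 2136, 2426, 1735 and 2155. In Eea1 it was exon 24 of 29, with 590, 404, 335 and 556, lower in every kidney than the best locus of the other 3 genes.

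The width of a locus followed the exon. In 64.1% of the assigned loci the peak was exactly an annotated exon in all 4 kidneys, and in 69.9% it was so in at least 1, so that for most loci the width is an exon length. The median width was 440 bp, with quartiles of 150 and 1284.5 bp, and 40 loci were wider than 5000 bp. An m6A site is a single base, and the width of a locus does not give its position.

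The widest locus was in exon 22 of Stard9, which encodes a kinesin, at 8919 bp, but it was joined from 9 peaks with a mean width of 3267 bp. Its scores were 197, 122, 89.5 and 132, low for its size. Spen, a large RNA-binding transcriptional regulator, followed with 8020 bp, the whole of exon 12 in all 4 kidneys. Its scores were 382, 1455, 2861 and 2240, and control 1 was lowest by a wide margin. Next came Apc, the WNT pathway scaffold (7708 bp), the zinc finger gene Zfp292 (7621 bp), the transcription factor Usf3 (7463 bp), the nuclear receptor corepressor Nrip1 (7418 bp) and the cytolinker Plec (7412 bp). Ankrd11, Med1 and Zbtb38, which act in transcription, had loci of 6518, 6300 and 6267 bp. Of these 10 loci, those of Apc, Zfp292, Usf3, Plec and Med1 held the stop codon, those of Nrip1 and Zbtb38 both the start and stop codon, and those of Stard9, Spen and Ankrd11 lay within the CDS. Nrip1 had the highest mean score of the 10, with 2106, 2502, 2504 and 3100. Zbtb38 had 264, 298, 486 and 2007, a single high kidney.

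The share of exons with a locus rose with exon length. Among 33401 internal coding exons of the genes with a locus, 5.42% of those under 100 nt, 7.57% of 100 to 200 nt, 11.99% of 200 to 400 nt, 49.8% of 400 to 1000 nt and 76.2% of those over 1000 nt had one. Whole transcripts showed the same order, from 2.38% of genes with transcripts under 1000 nt through 7.35%, 14.8% and 28.6% to 36.0% of those over 8000 nt.

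**Figure D2:**
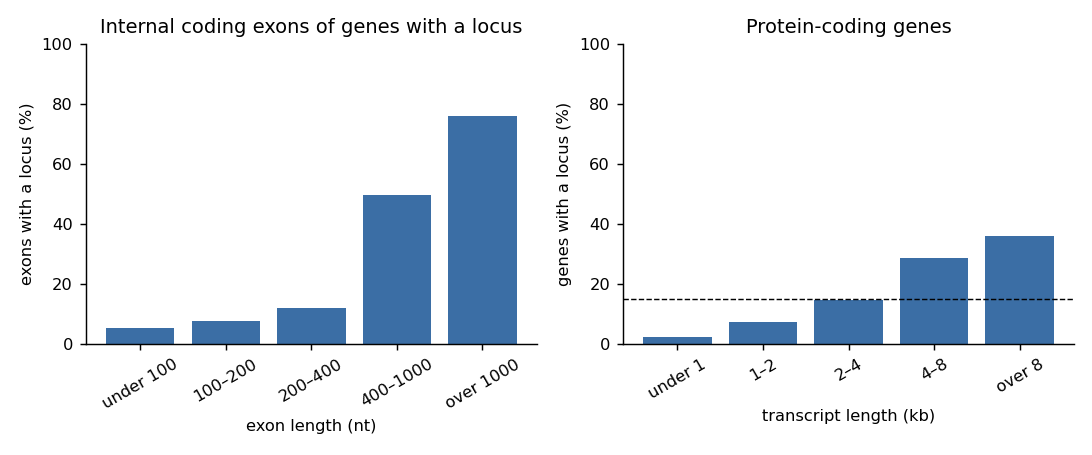
Share of internal coding exons of genes with a locus that carry one, by exon length in nt (left), and share of all protein-coding genes with a locus, by transcript length in kb (right). Exons over 1000 nt reach 76.2% against 5.42% under 100 nt, and the dashed line marks the 15.1% of all protein-coding genes.

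By position, 58.6% of the loci held coding bases but neither a start nor a stop codon. A stop codon was held by 28.0% and a start codon by 13.8%, including 4.19% that held both. Of the 5272 assigned loci, 2803 lay wholly within the CDS. Loci on the 3′ UTR (0.873%) or the 5′ UTR (1.35%) without coding bases were few. The median width was 1548 bp for loci that held a stop codon and 174 bp for those with coding bases and neither codon. Their median scores were 183 and 146, and neither difference was tested.

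In 46 loci all 4 kidneys scored 3100 or more, and they belonged to 40 protein-coding genes, with 3 loci outside any. By mean score, and then by the alphabet among 42 loci tied at exactly 3100, the first 10 were in Anp32b, Luc7l3, Ubxn4, Tmco1, Aldh8a1, Arhgap24, Arid1a, Atpif1, Cgnl1 and Eif5b. Aldh8a1, an aldehyde dehydrogenase of retinoid and tryptophan metabolism that is known from liver and kidney, had the whole of its last exon called (1198 bp), as had Atpif1, the inhibitor of the mitochondrial ATP synthase (269 bp). Pth1r, the parathyroid hormone receptor of the proximal tubule and bone, was at the ceiling in a 550 bp locus that held its stop codon. Igfbp5 (4577 bp), an insulin-like growth factor binding protein, and Golga4 (4211 bp) and Golgb1 (5129 bp), both Golgi tethers, were the widest ceiling loci beside Tchh (5593 bp). Luc7l3, Eif5b and Myo6, an unconventional myosin of brush border endocytosis, each had 2 loci at the ceiling. Reads of Anp32b, Ybx1, Ncl and the predicted genes Gm10800 and Gm20594 may be shared with near-identical copies, and their scores are uncertain.

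Loci within the CDS held more purines than coding exons of the same genes without a peak in any control kidney. A or G made up 53.1% of the bases of 27765 peak-free coding exons and 56.1% of 2803 loci within the CDS. Counted per region, the medians were 53.4% and 60.7%. The median rose with the score, from 59.6% in the lowest of 4 score classes, which hold 1318 each of all assigned loci, through 60.4% and 60.8% to 62.6% in the highest, and was 69.4% in the 23 coding loci at the ceiling in all 4 kidneys. Over all bases the shares of these classes were 55.7%, 55.1%, 55.3% and 57.3%, and 61.6% at the ceiling. The rise over the lower classes thus depended on the measure. Among the 23, values ran from 31.7% (Gm10800) and 40.4% (Arid1a) to 79.5% (St13) and 83.5% (one of the loci in Myo6). The 92 coding loci of the 10 genes with most loci had a median of 64.6%. The sequence AAGAA occurred 3.47 times per kb in peak-free coding exons, 5.56 times per kb in coding loci and 8.15 times per kb in those at the ceiling, on the gene strand with overlapping copies counted. This comparison of base content was chosen after the sequences had been seen and is a description.

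**Figure D3:**
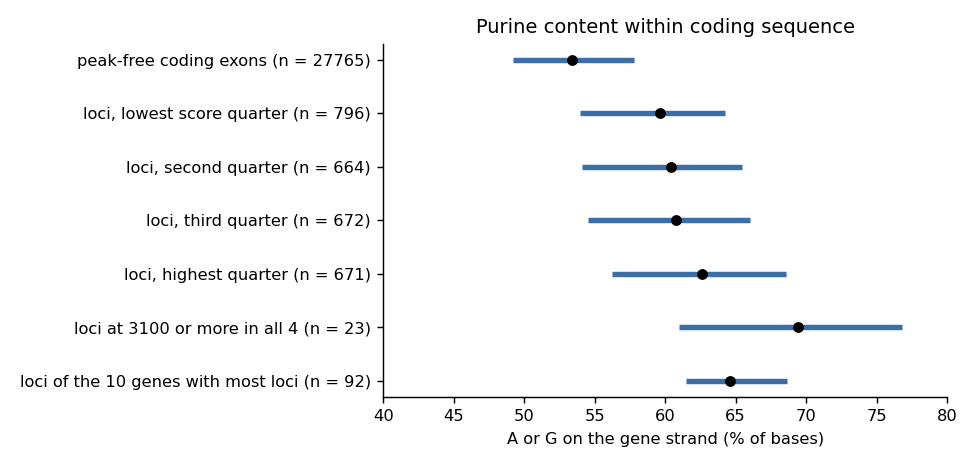
Share of A or G on the gene strand, in percent of bases, for coding exons without a peak, for loci within the CDS in 4 classes of mean score (796, 664, 672 and 671 loci), for loci at 3100 or more in all 4 kidneys and for the 10 genes with most loci. Points are medians and bars the quartiles over regions. The median is 53.4% without a peak and 69.4% at the ceiling.

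RRACH was only a little denser in the loci. It occurred 16.6 times per kb on the gene strand of loci, 11.9 times on the opposite strand and 14.6 times per kb on the gene strand of peak-free exons of the same genes. The ratio of loci to peak-free exons was 1.14 for all 12 forms, highest for AAACC (1.34) and 1.09 for GGACT. Over the same 4 classes of all assigned loci the density was 16.6, 16.5, 16.5 and 16.7 per kb. Within the CDS alone it was 16.0 per kb in peak-free exons, 18.3, 18.4, 18.2 and 19.2 per kb in the 4 score classes, 19.2 at the ceiling and 22.4 in the 10 genes with most loci. In windows of 50 bases to each side of the middle, 81.8% of loci and 78.4% of peak-free exons held a form on the gene strand, against 59.4% and 68.4% on the opposite strand. GGACT was in 10.4% and 10.6% of these windows. The forms themselves are purine-rich, and the part of base content in the difference between strands was not tested.

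Of 111 genes known as markers or transporters of a nephron segment, 19 (17.1%) had a locus in all 4 control kidneys, beside 15.1% of all protein-coding genes and 16.3% of all genes weighted to the same transcript lengths. A further 23 had peaks without such a locus and 69 had no peak in any control kidney. Per kidney, 32, 31, 27 and 34 of the 111 genes had a peak. Beside all genes of its own transcript lengths, the proximal tubule list was below and every other nephron list above. The margin was small for principal cells (14.3% against 12.8%) and intercalated cells (15.4% against 14.6%). This is a description of short lists without a test.

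Of 43 proximal tubule genes 1 had a locus, beside 14.7% of all genes of the same transcript lengths. In 36 there was no peak at all, while 29.0% of all protein-coding genes had a peak in at least 1 control kidney. The 1 gene was Slc5a1, the sodium-glucose cotransporter SGLT1, with a 109 bp locus in exon 14 of 15. Its scores were 21.4, 20.4, 57.1 and 34.6, all below the median control peak score of 73.5. Without any peak were Lrp2, Cubn and Amn, which form the endocytic receptor complex of the brush border, and Slc34a1, the sodium-phosphate cotransporter. Slc9a3, the sodium-proton exchanger NHE3, had a strong 2631 bp peak at its stop codon in 3 kidneys, with scores of 844, 1052 and 1122 in controls 1, 2 and 4, and none in control 3. Slc7a13, an amino acid transporter, had a peak in control 4 alone, which scored 2583. Slc4a4, the basolateral bicarbonate cotransporter, had a peak in every kidney but never at the same place in more than 2. These transcripts are known to be abundant in kidney, but their RNA level was not analysed here. Genes outside the list can differ, since Pth1r of the same segment was at the score ceiling.

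In the thick ascending limb 3 of 12 genes (25%) had loci, beside 16.6% of all genes of the same transcript lengths. Casr, the calcium-sensing receptor, had 3. Its 885 bp exon 4 scored 1221, 800, 1308 and 1289, its exon 2 with the start codon 718, 454, 821 and 901, and its exon 5 of 231 bp 100, 75.9, 81.3 and 241. The order of the 3 exons was the same in every kidney. Bsnd, which encodes barttin, had its whole last exon called with scores of 866, 728, 738 and 1134, and Ptger3, a prostaglandin E receptor, had 199, 131, 385 and 307. Umod, which encodes uromodulin, and the tight junction gene Cldn10 had no peak. Slc12a1, the cotransporter NKCC2, had 2 peaks in control 1 and none in the other 3 kidneys.

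In the distal convoluted and connecting tubule 6 of 17 genes (35.3%) had loci, beside 19.98% of all genes of the same lengths. Klhl3, a ubiquitin ligase adaptor that limits WNK kinases, scored 654, 94.4, 293 and 1164 at its stop codon. Stk39, the kinase SPAK downstream of WNK, had 2 loci in neighbouring exons, and exon 11 scored alike in the 4 kidneys, with 348, 282, 325 and 283. Kcnj10, a basolateral potassium channel, scored 45.8, 13.1, 17.6 and 558 over 5165 bp, so that control 4 set its mean. Atp2b4, Cnnm2 and Trpm6, which carry calcium or magnesium, had mean scores of 153, 131 and 40.3. Slc12a3, the thiazide-sensitive cotransporter, had no peak, nor had Pvalb, Wnk4 or Calb1, while Wnk1 had one in 3 kidneys with 130, 76.3 and 141.

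Of the nephron, other kidney cell and housekeeping lists, that of podocytes had the highest share, 5 of 12 (41.7%), with 22.2% for all genes of the same transcript lengths. Podxl, the sialoprotein podocalyxin, scored 1146, 1376, 451 and 1633 in its exon 2. Ptpro, a receptor phosphatase, scored 223, 198, 140 and 246. Kirrel and Plce1 were weak in all kidneys, with mean scores of 36.0 and 24.5. Control 3 was lowest for both Podxl and Ptpro. Nphs1, which encodes nephrin of the slit diaphragm, had a peak in 1 kidney, and Wt1 and Actn4 had none. Synpo had one in 3 kidneys, with 207, 42.5 and 282.

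In the collecting duct 2 of 14 principal cell genes and 2 of 13 intercalated cell genes had loci, or 14.3% and 15.4%, beside 12.8% and 14.6% of all genes of the same lengths. Atp6v1g3, a subunit of the proton pump of intercalated cells, had a locus in each of its 3 exons. The scores were 1578, 1332, 1061 and 1402 in exon 1, 1261, 1599, 1417 and 1503 in exon 2, and 1213, 1214, 1431 and 1498 in exon 3. The 12 values ran from 1061 to 1599, and the order of the exons differed between kidneys. Foxi1, the transcription factor of intercalated cells, scored 109, 50.9, 223 and 145. The pump subunits Atp6v1b1 and Atp6v0a4 and the anion exchangers Slc4a1 and Slc26a4 had no peak. In principal cells Aqp4, a basolateral water channel, scored 867, 119, 98.7 and 406 over 4168 bp and Nedd4l, the ligase that limits sodium channels, 108, 24.8, 19.9 and 136. Aqp2, Aqp3, Avpr2 and Scnn1b had no peak. Scnn1a and Nr3c2, the mineralocorticoid receptor, had peaks in 3 and 4 kidneys without a locus common to all.

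**Figure D4:**
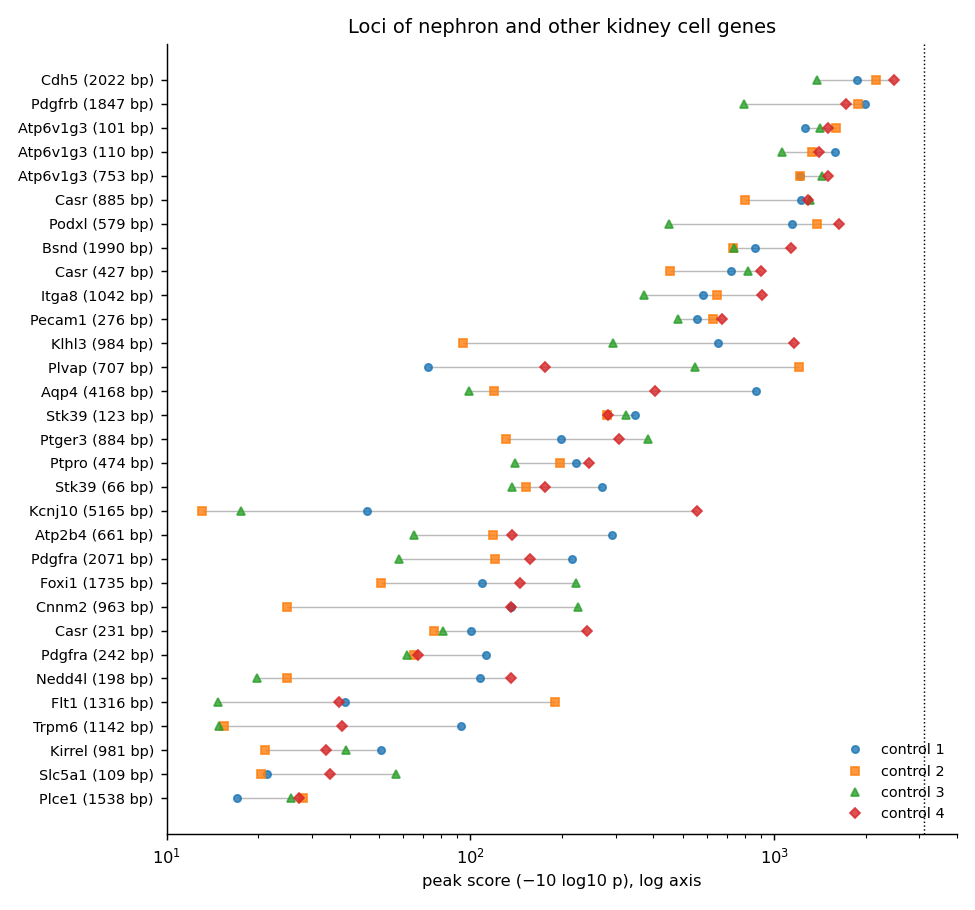
Peak scores (-10 log10 p, log axis) in each of the 4 control kidneys for 31 of the 32 loci of nephron and other kidney cell genes present in all 4, ordered by mean score, with the width of each locus in bp. The dotted line is the score of 3100. Cdh5, Pdgfrb and the 3 loci of Atp6v1g3 lead, and Kcnj10 spans from 13.1 to 558.

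Of the endothelial and stromal genes a minority had a locus, though in both lists the share was above that of all genes of the same lengths. Cdh5, the endothelial cadherin, scored 1872, 2163, 1379 and 2479 in its last exon, the highest mean among loci of the nephron and other kidney cell lists in all 4 kidneys. Pecam1 scored 557, 628, 482 and 672 in its exon 8, and Plvap, a component of fenestral diaphragms, 72.7, 1205, 547 and 176. Flt1, a VEGF receptor, was weak apart from control 2, with 38.6, 190, 14.8 and 36.8. Of 12 endothelial genes these 4 (33.3%) had a locus, beside 21.7% of all genes of the same lengths, and Kdr, Tek, Ehd3 and Eng had no peak. Among 13 stromal genes 3 (23.1%, beside 20.5%) had loci. Pdgfrb scored 1989, 1881, 793 and 1723 and Itga8, an integrin of mesangial cells, 583, 650, 371 and 908. Pdgfra had 2 weaker loci, with 112, 65.1, 61.9 and 67.0 in exon 22 and 216, 121, 58.1 and 157 in exon 23. Ren1 and the collagens Col1a1, Col1a2 and Col3a1 had no peak. None of 13 immune cell genes had a locus, beside 13.98% of all genes of the same lengths, and 9 had no peak, among them Cd68, Adgre1, Csf1r and Cd3e.

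**Figure D5:**
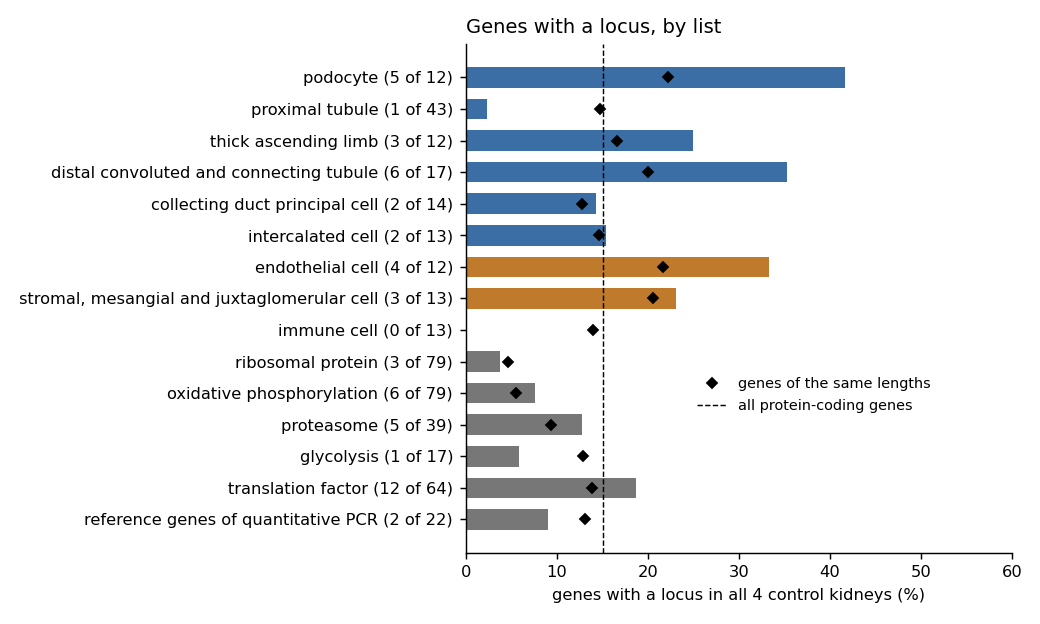
Share of genes with a locus in all 4 control kidneys, in percent, for 6 nephron lists (blue), 3 lists of other kidney cells (orange) and 6 housekeeping lists (grey), with counts in brackets. Diamonds give the share among all genes of the same transcript-length classes and the dashed line the 15.1% of all protein-coding genes. The proximal tubule bar lies below its diamond, and those of podocytes and the distal convoluted and connecting tubule above.

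Of 293 housekeeping genes 29 (9.90%) had a locus, beside 15.1% of all protein-coding genes and 8.51% of all genes of the same transcript lengths, which are short. In ribosomal protein genes 3 of 79 (3.80%) had a locus, beside 4.60% of all genes of the same lengths. Rpl26 scored 1795, 1317, 2278 and 2339, Rpl29 990, 466, 815 and 567, and Rpl4 287, 681, 245 and 353, all in the last exon with the stop codon. In 74 of the 79, among them Rpl3, Rpl5, Rpl6 and Rpl7, there was no peak. Peaks are rare in short genes, as 7.74% of all genes with transcripts under 1000 nt had one in any control kidney. Ribosomal protein reads may be shared with processed copies elsewhere in the genome, so both peaks and missing peaks are uncertain here.

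Of 79 genes of oxidative phosphorylation 6 (7.59%) had a locus, beside 5.56% of all genes of the same lengths. All 6 were among the 38 genes of the list with a symbol starting in Nduf, most of which encode subunits of complex I, and made up 15.8% of them, beside 5.49% of all genes of the same lengths. This subset was chosen after its values were seen. Ndufa10 was the strongest and evenly so, with 975, 1062, 1041 and 1175 in its exon 2. Ndufa12 had loci in exons 1 and 2, Ndufs5 scored 344, 325, 540 and 369, and Ndufs4 361, 102, 281 and 442. Ndufv3 and Ndufv2 had mean scores of 200 and 71.7. The ATP synthase genes Atp5a1, Atp5b, Atp5c1 and Atp5d had no peak.

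Of 39 proteasome genes 5 (12.8%) had a locus, beside 9.34% of all genes of the same lengths. Psmd7, a subunit of the regulatory particle, led with 1703, 2097, 2121 and 1482 in its last exon, and Psmd1 had 2 loci. Psma4 scored 2980, 674, 679 and 332, high in control 1. Glycolysis had 1 of 17 (5.88%, beside 12.9%), the hexokinase Hk1 with 210, 202, 144 and 117, and Gapdh, Hk2, Gpi1 and Pfkl had no peak. Of 22 genes used as references in quantitative PCR, 2 (9.09%, beside 13.1%) had a locus. They were Tbp (302, 150, 168 and 156) and Nono (62.6, 92.4, 41.2 and 35.5). Actb, Gapdh, B2m and Hprt were without a peak in all 4 control kidneys.

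Among translation factors 12 of 64 genes (18.8%) had a locus, beside 13.8% of all genes of the same lengths. They held 33 loci, of which Eif5b, Eif4g3 and Eif3a held 19. Eif5b had 7 loci in exons 1, 2, 4, 5, 7, 9 and 10 of 24, with both exons 4 and 5 at the ceiling in every kidney. Eif4g3 had 7 loci with mean scores from 61.3 to 638. Eif3a, the scaffold subunit of the initiation factor eIF3, had 5, and its exon 20 scored 3100, 3100, 2771 and 3100. Eif3j1 scored 1720, 1670, 2229 and 1998 in exon 4. Eif3c scored 18.5, 93.6, 118 and 1896 in exon 4, so that control 4 set its mean. The list was built from gene symbols and also holds a few genes named after a factor, such as Eef1akmt1, Eef1akmt2 and Eef1akmt4, which had no peak, as had Eef1a2.

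The m6A machinery itself was looked up after the other lists. Of 22 genes 11 had a locus (50%), beside 15.1% of all protein-coding genes and 21.7% of all genes of the same transcript lengths, and 8 had no peak. Of 10 writers and accessory proteins 6 had one. Zc3h13, which holds the complex in the nucleus, had 9 loci, the best scoring 1182, 1364, 908 and 1199. Wtap had 3 loci and Virma 2, with 1379, 1318, 1713 and 945 in exon 7 of Virma, and Rbm15 scored 1385, 1072, 781 and 1398. The catalytic Mettl3 had no peak, and Mettl14 had 1 to 3 peaks per kidney but no locus in all 4. Of the readers, Ythdf2 scored 1417, 1425, 1913 and 1603, Ythdf3 717, 249, 665 and 1178, and Ythdf1 73.8, 97.9, 72.6 and 361, each in 1 long coding exon. Ythdc1 had 5 loci, and Ythdc2, Igf2bp1 and Igf2bp3 had no peak. Of the erasers Alkbh5 had a weak locus with 24.6, 18.7, 14.5 and 64.3, and Fto had a peak in control 3 only.

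Control kidneys were compared with treated ones on 5 values per kidney. The median peak width was 337, 340, 339 and 328 bp in controls, 386, 419.5, 373 and 388 bp in IG and 379, 330, 354 and 384 bp in TG. All 4 controls were narrower than every IG kidney, by 55.6 bp on average (336 ± 5.48 against 392 ± 19.7, SD, n = 4 each), while controls and TG overlapped. Genes with at least 5 peaks numbered 263, 259, 271 and 335 in controls, 162, 198, 241 and 168 in IG and 164, 160, 136 and 151 in TG, and controls lay above every treated kidney. Housekeeping genes with a peak numbered 39, 37, 43 and 42 in controls, 36, 34, 38 and 33 in IG and 30, 25, 25 and 34 in TG.

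Of 10 two-sided exact permutation tests, 4 reached the smallest p that 4 against 4 kidneys allow (0.0286): width against IG, genes with at least 5 peaks against IG and TG, and housekeeping genes against TG. None passed after Benjamini-Hochberg adjustment over the 10 tests, in which the lowest adjusted p of the exact tests was 0.0714. With only 4 of 10 tests at the smallest possible p, no adjusted p could fall below 0.05. This outcome therefore does not show that the groups are alike. For nephron genes with a peak the means were 31 ± 2.94 in controls, 30.8 ± 10.3 in IG and 28 ± 1.83 in TG (SD, n = 4), with exact p = 1 and p = 0.171. The IG kidneys had 24, 28, 46 and 25 such genes, and without IG 3 the difference from IG was 5.33 in place of 0.25. Median scores were 73.5 ± 2.33 in controls, 70.8 ± 1.95 in IG and 69.3 ± 3.81 in TG, with exact p = 0.171 and p = 0.114. List length moved with these values, and with all 12 lists shortened to their 5901 strongest peaks the difference in genes with at least 5 peaks was 0 against IG and −2.25 against TG, and that in housekeeping genes against TG was 6.5 in place of 11.75 with an adjusted exact p of 0.0714. The width difference turned to 6.75 bp wider in controls against IG and 81.3 bp wider against TG, with adjusted exact p of 0.921 and 0.0714. Shortening removes more low-score peaks from the longer control lists, so the higher median score of the shortened control lists follows from the construction and is no result, and the width of loci also rose with score. With only peaks at or above the median score of all lists, controls kept more genes with at least 5 peaks. The differences were 24.75 against IG and 34.25 against TG, each with an adjusted exact p of 0.0714.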

How the data were processed

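MeRIP-seq of 4 control kidneys was described, with 4 IG and 4 TG kidneys for comparison, grouped by the sample labels. The authors extracted total RNA from kidney tissue, removed ribosomal RNA, fragmented it and enriched it with an m6A antibody, with a poly(A) selection of mRNA also named in their methods, trimmed reads with cutadapt 1.9.3, aligned them to mm10 with HISAT2 2.0.4 and called peaks with MACS in each kidney, keeping those on mRNA exons. The MACS version, its threshold and its control library are not given in the sources used here. Each deposited list holds the position, strand and score of peaks on mRNA, the score being -10 log10 of the peak's p-value as the authors deposited it. Input libraries (12) and RNA sequencing data were not used here, and depth is unknown.

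Starts were read as counted from 0. Peaks overlapping by at least 1 bp were joined regardless of strand, and each locus was assigned to the gene of GENCODE M21 on its strand with the most exonic bases, each gene being represented by its transcript with the longest CDS. The score of a locus in a kidney is its highest peak score. Named are the 10 genes with most loci, the 10 widest and the 10 highest-scoring loci, with ties broken by symbol, and per gene list up to 4 genes with the highest mean score and the first 4 of the list without a peak. A few genes that this rule names are not reported here. Other genes, the machinery genes and the base composition were chosen after their values were seen. The members and gene lists were chosen with earlier results of these data known. List counts in controls are therefore descriptions without a test, set beside all genes of the same transcript-length classes. Only the numbers of nephron and housekeeping genes with a peak were tested against treated kidneys, and those p-values carry the same limit. The joining was tested on simulated peak lists.

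The 5 values per kidney were compared by a two-sided exact permutation test of the difference in means over all 70 arrangements of 4 against 4 kidneys, adjusted by Benjamini-Hochberg over 10 tests. Nothing in the sources says more of the replicates than that they are separate mice. Alternatives were joining within 100 bp or within a strand, a score threshold, lists of equal length, at least 3 kidneys, every gene with an exonic base, ranks, windows, a replicate block and omission of each kidney. Python 3.11.15, numpy 2.4.6, pandas 2.3.3, pysam 0.24.0 and matplotlib 3.10.9 were used.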

Additional observations from a re-analysis of the deposited data

Results flagged for a closer look

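A value far from the other 3 was sought in 131 groups of 4 kidneys. They were 15 groups of values per kidney, the scores of 32 loci of nephron and other kidney cell genes, 53 of housekeeping genes and the 10 widest, and the best loci of the 10 genes with most loci and of 11 machinery genes. Of these, 15 passed Dixon's 95% critical value. Chance alone flags about 5% of groups of normally distributed values. Peak scores need not follow that distribution, so the number flagged cannot be read as an excess. Control 4 had 335 genes with at least 5 peaks, against 259 to 271 in the other controls, and it also had the longest list. In 5 of the loci the single high kidney was control 4 as well. The locus of Kcnj10 scored 558 there against 13.1 to 45.8, the exon 5 locus of Casr 241 against 75.9 to 100, the wide locus of Zbtb38 2007 against 264 to 486, the locus of Eif3c 1896 against 18.5 to 118 and that of Ythdf1 361 against 72.6 to 97.9. Control 1 was high in a locus of Pdgfra (112 against 61.9 to 67.0), in Psma4 (2980 against 332 to 679), in Tbp (302 against 150 to 168) and in exon 12 of Eif4g3 (173 against 129 to 136). Control 2 was high in Flt1 (190 against 14.8 to 38.6) and in exon 10 of Eif4g3 (293 against 121 to 140). Control 3 was high in Ndufv2 (165, the next highest being 53.6) and in exon 1 of Eif2s2 (105 against 18.5 to 31.8), and low in exon 20 of Eif3a, with 2771 where the other 3 kidneys stood at the ceiling of 3100. The mean scores of all these loci but that of Eif3a are raised by 1 kidney, most of all in Kcnj10 and Eif3c.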

How the results depend on the processing

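Joining within 100 bp or within a strand and assignment to every gene with an exonic base left each of the 11 described counts, medians and shares within its spread between kidneys or within 1.5 times. With only peaks at or above the median control score there were 2650 loci in 1858 genes, 74.9% of them with 1 locus and 25 with 5 or more, a median width of 569 bp, 9 nephron genes, 0 proximal tubule genes and shares of 29.2% and 14.7% with a stop and a start codon, and 4 of the 10 genes named for most loci stayed among the highest. When 3 kidneys with a peak sufficed, 64.99% of genes had 1 locus, 211 had 5 or more, the median width was 405 bp, 2 proximal tubule genes had a locus and 69.0% of loci held a whole exon. With control lists of equal length the median width was 448 bp. Without 1 control replicate in turn, the median width was 418 to 426.5 bp, the share of genes with 1 locus 67.2% to 68.1%, that of loci with a whole exon 68.9% to 69.5% and the number of proximal tubule genes 1 to 2, the second being Slc9a3 without control 3.

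Among the 5 values compared with treated kidneys, lists of equal length turned the difference in median width to 6.75 bp against IG and 81.3 bp (adjusted exact p = 0.0714) against TG, that in genes with at least 5 peaks to −2.25 against TG and that in nephron genes to −3.75 against both IG and TG. Only peaks at or above the median score of all lists turned the width difference against TG to 45.6 bp and the score difference against IG to −6.85. Leaving out 1 kidney moved the difference in nephron genes against IG between −2 and 5.33, the latter without IG 3, and it was below 0 without control 1 or 4 and without IG 1, 2 or 4. No alternative gave an adjusted p under 0.05, which with so few kidneys needs most of the tests to reach the smallest possible p. With the replicate number as a block the differences are unchanged by construction (55.6 bp narrower, that is −55.6, for width against IG), the smallest possible exact p is 0.125 and the adjusted p values lay between 0.208 and 1. The numbers do not pair mice, and deviations of same-numbered kidneys correlated between −0.661 and 0.511 over the 5 values. The lists hold no counts, so depth could not be weighed, and scores at the ceiling cannot be ranked.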
